A study of Mus musculus with 8 samples.

Results

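The serpin genes Serpina1a, Serpina1b, Serpina1d and Serpina7 were described in the hepatoma cells of mouse tumours grown from Hepa1-6, a liver cancer cell line. These 4 genes are members of a table of 2000 genes that holds 25 further genes whose symbol starts with Serpin. Hepatoma cells were taken as cells whose mean deposited value of Krt8 (a keratin of epithelial cells), Afp (alpha-fetoprotein) and Alb (albumin) was at least 1, and whose mean value of the T-cell genes Cd3g and Trbc2 and the myeloid genes Tyrobp and Fcer1g was below 0.5. A deposited value is on the natural log scale, and in set 1 it is the natural log of 1 plus the UMIs (counted RNA molecules) of a gene per 10000 UMIs of the cell. The gate took 34499 of 53528 cells. The genes and the gate were chosen with values from these cells in view, so the differences below are descriptions and none was tested.

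The study profiled tumours by droplet 3′ single-cell RNA sequencing in 4 groups. Tumours of WT (unedited) or of Soat1-edited hepa1-6 cells came from animals injected intraperitoneally with PBS or with an antibody against PD1, a checkpoint receptor of T cells. The titles call the Soat1 edit a knockout and the genotype field a knockdown, and neither the strain, age and number of animals nor whether the edited line is 1 clone is stated in the labels. All groups share the 1 parental line, and each has a cDNA and an oligo entry, which count as 1 sample. The cells fall into 6 sets by the last number of their names, and no source used here says which group a set belongs to. Genotype and treatment could therefore not be compared, all cells count as 1 pooled sample, and the sets are unassigned samples.

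The gate held 7285, 5021, 8297, 3772, 5751 and 4373 cells in sets 1 to 6. UMI counts could be recovered for set 1, where 7227 hepatoma cells remained after 58 called doublets were left out, with a median of 15284 UMIs per cell. In sets 2 to 6 every cell held values below 0, so their depth is unknown and only deposited values are given for them. The gate genes Krt8, Afp and Alb were detected in 96.0%, 99.1% and 98.6% of the set 1 cells, which follows largely from the gate. Outside the gate genes, the myeloid marker C1qa was detected in 30.6% and Lyz2 in 7.22%. The fibroblast markers were detected in 6.77% (Col1a1) to 15.9% (Dcn). Single cells held up to 81260 UMIs of the fibroblast markers and 28736 of the myeloid markers per 1000000 UMIs, with a median of 0 for both. Within 0.25 of the threshold, the 99 cells just inside it held 1 UMI each of Serpina1a, Serpina1b and Serpina1d and 4 of Serpina7, at a median depth of 3073 UMIs. The 94 cells just outside it held 1, 3, 1 and 1 UMIs of these genes, at a median of 1231.

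Many serpins are protease inhibitors that trap their target through an exposed reactive centre loop, while others inhibit no protease. Those of the group that holds Serpina1 and Serpina7 are secreted. The mouse genome carries several near-identical copies of the human SERPINA1 gene, which encodes alpha-1-antitrypsin, a plasma inhibitor made mainly by hepatocytes that protects tissue from neutrophil elastase. Serpina7 encodes thyroxine-binding globulin, a liver-made carrier of thyroid hormone that has the serpin fold but inhibits no protease. Liver-enriched factors such as HNF1, HNF4 and C/EBP are known to drive genes of this kind.

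The 3 Serpina1 genes lie near each other on the minus strand of chromosome 12, at chr12:103853295-103863619 for Serpina1a, chr12:103728156-103738189 for Serpina1b and chr12:103763587-103773633 for Serpina1d, and Serpina7 lies on the minus strand at chrX:139079249-139085236 (RefSeq, GRCm38.p6). The coding sequences of the 3 copies are 1242 bases long, and the identity between pairs of them is 97.0% (Serpina1a and Serpina1b), 96.6% (Serpina1a and Serpina1d) and 96.5% (Serpina1b and Serpina1d), against 53.6% to 54.4% between each of them and Serpina7. The copies differ at 61 coding positions, and 12 of these fall in 60 bases of the last exon, exon 5, which encode part of the reactive centre loop. That stretch, coding positions 1088 to 1147, is shown because it is where the copies are most unlike and where reads near the 3′ end can tell them apart. Capitals mark the positions at which the 3 are not all alike (GENCODE transcripts, GRCm38, minus strand, 5′ to 3′).
Serpina1a, chr12:103853770-103853829: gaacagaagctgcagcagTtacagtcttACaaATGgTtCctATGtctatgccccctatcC
Serpina1b, chr12:103728337-103728396: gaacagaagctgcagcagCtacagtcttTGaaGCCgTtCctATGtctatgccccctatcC
Serpina1d, chr12:103763775-103763834: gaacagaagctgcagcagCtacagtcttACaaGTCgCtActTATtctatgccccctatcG

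The likeness bears on counting. The last 500 bases of each transcript hold 401 windows of 100 bases, the length of read 2. Of these, 33 of Serpina1a, 5 of Serpina1b and 11 of Serpina1d also occur in another Serpina1 gene, and 0 of Serpina7. For Serpina1c, a further copy named below, 39 do. These are exact matches, so they are a lower bound on the reads that the counting could split or lose, and the values of the 3 copies are uncertain to that extent. How reads matching several genes were handled is not given in the sources used here.

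The promoters are shown because the 3 copies were high in the same cells, while the values of Serpina7 were only weakly correlated with theirs. The 250 bases before the start of transcription are 85.1% to 89.4% identical between pairs of the 3 copies and 38.6% to 41.0% identical to those of Serpina7. A run of 55 bases is shared without a difference by Serpina1a, Serpina1b, Serpina1c, Serpina1d and Serpina1e and by no other of 32851 promoters in the RefSeq table. Capitals mark GTTAAT, a half-site of the factor HNF1, searched on both strands.
Run shared by the 5 Serpina1 promoters: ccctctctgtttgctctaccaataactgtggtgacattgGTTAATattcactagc
Serpina1b, chr12:103738190-103738439 (GRCm38.p6, minus strand): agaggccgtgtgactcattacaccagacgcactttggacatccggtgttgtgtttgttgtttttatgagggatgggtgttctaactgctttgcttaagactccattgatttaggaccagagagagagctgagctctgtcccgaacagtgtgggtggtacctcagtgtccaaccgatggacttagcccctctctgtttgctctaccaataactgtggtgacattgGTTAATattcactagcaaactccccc
Serpina7, chrX:139085237-139085486 (GRCm38.p6, minus strand): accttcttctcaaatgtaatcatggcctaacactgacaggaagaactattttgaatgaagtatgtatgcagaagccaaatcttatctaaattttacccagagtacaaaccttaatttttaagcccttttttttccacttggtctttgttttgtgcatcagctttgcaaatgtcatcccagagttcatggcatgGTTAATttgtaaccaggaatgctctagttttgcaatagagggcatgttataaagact
GTTAAT occurs 1 time in each of the 4 promoters, and 6.43% of the 32851 promoter windows of 250 bases hold it. The hypoxia response core, searched as ACGTG or GCGTG on both strands, is in 38.6% of the windows and in none of the 4. TATAAA, searched on both strands, is in 12.4% of the windows and in that of Serpina7 alone among the 4. A match is only a match of letters.

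In set 1, Serpina1a had 2068 UMIs in the 7227 hepatoma cells, which is 13.4 UMIs per 1000000 UMIs of these cells (CPM; exact 95% Poisson interval 12.8 to 14.0). Serpina1b had 6244 UMIs or 40.4 CPM (39.4 to 41.4), Serpina1d 2111 UMIs or 13.7 CPM (13.1 to 14.2), and Serpina7 9513 UMIs or 61.5 CPM (60.3 to 62.8). The share of cells with at least 1 UMI was 5.83% for Serpina1a, 16.7% for Serpina1b, 5.42% for Serpina1d and 34.7% for Serpina7. The levels of the Serpina1 genes rested on few cells. Leaving out the 10 cells with the most UMIs of each gene gave 5.39 CPM for Serpina1a, 22.2 for Serpina1b and 5.76 for Serpina1d, against 58.0 for Serpina7. Intervals here and below cover counting error only, and with UMIs gathered in few cells they are too narrow for any other error.

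Other cells also held UMIs of liver genes. Free RNA in droplets or doublets that were not called could give these, and neither was tested. In 1322 cells of set 1 with T-cell genes, where no bound was set on Krt8, Afp and Alb, the levels were 3.55 CPM for Serpina1a, 7.58 for Serpina1b, 1.89 for Serpina1d and 5.33 for Serpina7, at a median depth of 4695 UMIs. Cells with a UMI were 1.59%, 4.08%, 0.908% and 2.87% of them. Afp was detected in 84.9% of the same cells, at 491 CPM, so hepatoma RNA was widespread in them. The class first planned also needed a mean of Krt8, Afp and Alb below 0.5 and held 71 cells. It had 2, 0, 0 and 2 UMIs of the 4 genes in that order, and Afp at 49.9 CPM. After thinning every cell to 1000 UMIs, Serpina7 was detected in 5.15% of hepatoma cells (exact binomial interval 4.65 to 5.68) and 0.454% of cells with T-cell genes (0.167 to 0.985). For Serpina1b the thinned shares were 1.61% (1.33 to 1.92) and 0.756% (0.363 to 1.39), for Serpina1a 0.567% (0.407 to 0.769) and 0.378% (0.123 to 0.880), and for Serpina1d 0.623% (0.455 to 0.832) and 0.227% (0.0468 to 0.662). The intervals overlap for each of the 3 copies, so a cell with 1 UMI of a Serpina1 gene is not read as a cell that makes it.

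All 6 sets held cells with a value of at least 1 for each gene, but in unequal shares. In a shallow cell of set 1, 1 UMI gives such a value, so shares of this kind also depend on depth, here and below. A value of at least 1 for Serpina7 was found in 11.4%, 12.1%, 9.98%, 17.6%, 10.7% and 13.8% of the hepatoma cells of sets 1 to 6. For Serpina1b the shares were 2.43%, 2.15%, 1.69%, 2.68%, 1.46% and 1.17%. Set 4 was highest for both genes. Serpina1a reached this value in 0.892%, 0.876%, 0.337%, 0.689%, 0.435% and 0.0457%, the last being 2 of 4373 cells. Serpina1d reached it in 0.947%, 0.757%, 0.325%, 0.742%, 0.469% and 0.252%. Set 6 was lowest for all 3 Serpina1 genes and second highest for Serpina7. Since the values of sets 2 to 6 were altered before deposit, these shares compare the deposited values and not known counts.

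**Figure D1:**
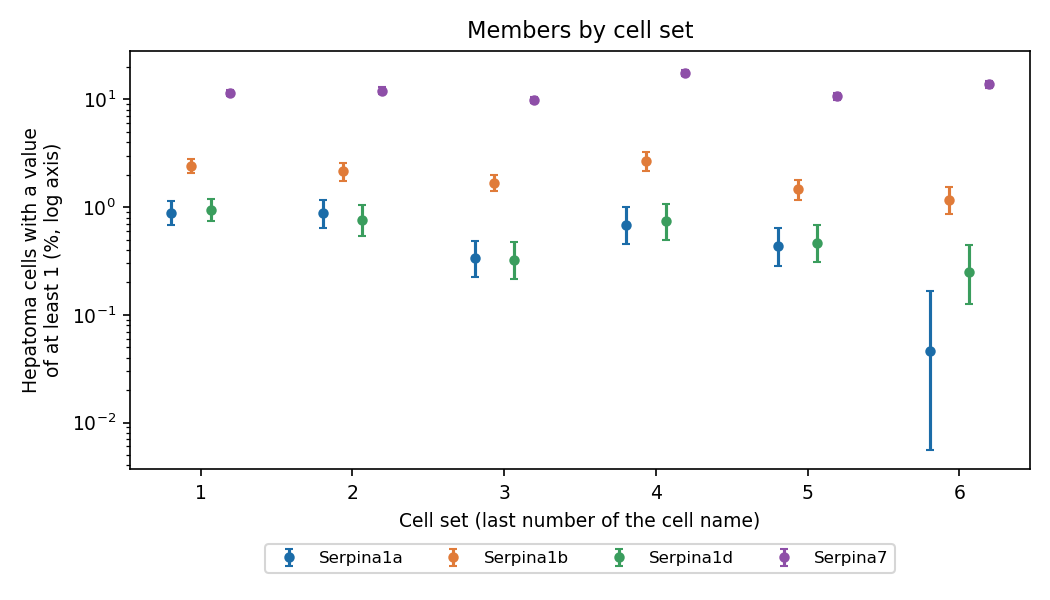
Share of hepatoma cells with a deposited value of at least 1 (percent, log axis) for each gene in each of the 6 cell sets; points are shares and bars exact 95% binomial intervals. Serpina7 lies between 9.98% and 17.6%, Serpina1b between 1.17% and 2.68%, and Serpina1a is at 0.0457% in set 6.

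The 2 kinds of gene were spread over the cells in different ways. Serpina1a had no UMI in 6806 of the 7227 cells, 1 UMI in 343, 2 to 9 in 52 and 10 or more in 26, and 1 cell held 365. Serpina1b had 1 UMI in 888 cells and 10 or more in 72, with 710 in the highest cell, and Serpina1d had 10 or more in 27 cells, with 308 in the highest. Serpina7 had 1 UMI in 1169 cells, 2 to 9 in 1110 and 10 or more in 232, and its highest cell held 101. The 73 cells with the most UMIs of a gene, 1% of the cells, held 82.9% of the Serpina1a UMIs, 73.3% of those of Serpina1b and 83.7% of those of Serpina1d. For Serpina7 they held 23.5%. The median over the 905 genes with at least 1000 UMIs was 15.7%. At least as concentrated as Serpina1a were 10 of these genes, as Serpina1b 20 and as Serpina1d 8, each gene itself included, and 214 as Serpina7.

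**Figure D2:**
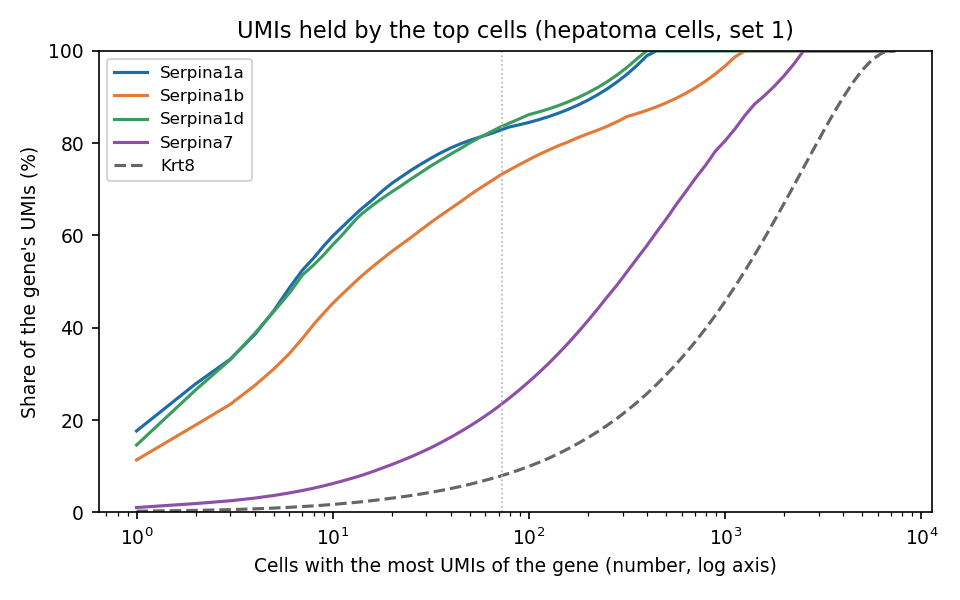
Share of a gene's UMIs (percent) held by the cells with the most of them (number of cells, log axis) in the 7227 hepatoma cells of set 1, with Krt8 for comparison; the dotted line marks 73 cells. The Serpina1 curves reach 73.3% to 83.7% at that line, Serpina7 23.5% and Krt8 8.0%.

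The 3 copies were high in the same cells. All 40 cells with 5 or more Serpina1a UMIs had 5 or more of Serpina1b, as had all 50 such cells of Serpina1d, and 33 of the 40 also had 5 or more of Serpina1d. Over the 119 cells with 5 or more Serpina1b UMIs, the 40 are 33.6% and the 50 are 42.0%. Of the 549 cells with 5 or more Serpina7 UMIs, 12 had as many of Serpina1a, 40 of Serpina1b and 16 of Serpina1d. These were 30% of the cells with 5 or more Serpina1a UMIs, 33.6% of such Serpina1b cells and 32% of such Serpina1d cells. The 549 are a smaller share of all 7227 hepatoma cells. Cells high in a copy were thus more often high in Serpina7 than hepatoma cells at large, with no correction for depth. Across hepatoma cells the correlation of values (Pearson r, given as a description, since the genes of a cell share its depth and scaling) lay between 0.46 and 0.69 over the 6 sets for Serpina1a and Serpina1b, between 0.51 and 0.76 for Serpina1a and Serpina1d, and between 0.61 and 0.76 for Serpina1b and Serpina1d. Between Serpina7 and any of the 3 it lay between 0.03 and 0.09. Reads shared between the copies, described above, would also place their UMIs in the same cells, and their part in this was not tested.

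Serpina1b supplied most of the UMIs of the copies. Of the 10423 UMIs of the 3 genes, counted with no correction for length, Serpina1a took 19.8% (exact binomial interval 19.1 to 20.6), Serpina1b 59.9% (59.0 to 60.8) and Serpina1d 20.3% (19.5 to 21.0). Serpina1b took the most in 55 of the 56 cells with 20 or more such UMIs, with a share between 41.7% and 86.2% and a median of 63.7%. Its share was 66.5% (63.4 to 69.4) in the lowest hypoxia tertile, defined below, and 58.6% (57.4 to 59.9) in the highest. The intervals do not overlap, but they cover counting error only, and few cells held most UMIs of the copies. In the 100 cells with the most of these UMIs for their depth, described below, the share of Serpina1b was 56.8%. In the other 7127 cells it was 69.5%. The part of those few cells in the shift between tertiles was not tested.

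Hypoxia was scored as the mean value of Ndrg1 and Bnip3, which are induced through the HIF factors when oxygen is short, and hepatoma cells of each set were split into tertiles, 3 classes of like size. In set 1 the lowest tertile held 2409 cells with a median of 17051 UMIs, and the highest 2412 cells with a median of 14093. Serpina7 was at 18.0 CPM (16.9 to 19.1) in the lowest tertile, 51.2 (49.3 to 53.2) in the middle and 126 (123 to 129) in the highest, a ratio of 7.02 (6.57 to 7.51) between the outer tertiles. It had a UMI in 23.6%, 33.6% and 47.0% of the cells. Serpina1a went from 3.14 CPM over 11.4 to 28.1, a ratio of 8.98 (7.67 to 10.6). For Serpina1b the tertiles gave 11.7, 36.5 and 79.8 CPM with a ratio of 6.84 (6.30 to 7.44), and for Serpina1d 2.75, 12.6 and 28.2 CPM with a ratio of 10.2 (8.68 to 12.2). The share of cells with a Serpina1a UMI hardly moved, at 5.31% in the lowest and 6.47% in the highest tertile, while cells with a value of at least 1 made up 0.291% and 1.33%.

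All 4 genes were thus more than 1.5 times higher in the highest tertile, against 18.7% of the 1639 genes with at least 50 UMIs, while 47.3% were as much lower. The median ratio over those genes was 0.711, and 27 of them had a ratio as large as that of Serpina7, which is counted among them. Few cells carried the ratios of the copies. Without the 10 cells with the most UMIs of each gene the ratio was 2.81 (2.29 to 3.46) for Serpina1a, 3.07 (2.78 to 3.40) for Serpina1b and 3.81 (3.06 to 4.77) for Serpina1d, and 6.47 (6.05 to 6.92) for Serpina7. Depth moved the size as well. With every cell thinned to 5000 UMIs, and shallower cells left out, the ratios were 4.63, 4.92, 5.35 and 5.43 for Serpina1a, Serpina1b, Serpina1d and Serpina7. Within the tertile of cells with the lowest UMI totals they were 2.35, 2.84, 3.88 and 4.69, and within that with the highest totals 12.5, 9.04, 13.8 and 8.44. In all 6 sets the mean value of each gene was higher in the highest tertile than in the lowest, which held for 17.4% of all 2000 genes, while 47.8% were lower in all 6. The difference of mean values for Serpina7 was between 0.37 and 0.48 with a median of 0.40. It was between 0.04 and 0.10 for Serpina1b, between 0.02 and 0.05 for Serpina1d and between 0.0050 and 0.047 for Serpina1a, lowest in set 6. Serpina7 reached a value of 1 in 20.8% to 31.5% of the cells of the highest tertiles and 2.28% to 7.55% of those of the lowest, so the ranges over the sets do not overlap.

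Markers of other cells differed between the tertiles too. From the lowest to the highest, the summed fibroblast markers (4 of 4 in the table) were at 214, 120 and 46.1 CPM and the myeloid markers (4 of 5) at 110, 94.7 and 40.8 CPM. The T-cell markers (4 of 5) were level, at 25.4, 25.5 and 25.5 CPM. The T-cell sum includes the gate genes Cd3g and Trbc2, and the myeloid sum Tyrobp and Fcer1g. The gate bounds these genes, so here and below both sums are in part held low by it. The part of other cells or their RNA in the ratios was not tested.

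Other hypoxia genes of a fixed list moved with the score, as 7 of 8 in the table were at least 1.5 times higher, with a median ratio of 4.70. The liver transcription factor genes did not reach 1.5 times, with a ratio of 1.04 (0.984 to 1.10) for Hnf4a and 0.929 (0.883 to 0.977) for Cebpa. Of 27 secreted liver proteins, 15 were at least 1.5 times higher and Ttr (transthyretin, another thyroid hormone carrier) was lower, at 0.405 (0.397 to 0.414). Their median ratio was 1.74. Gc (vitamin D-binding protein) had a ratio of 3.44 (3.28 to 3.6) and Ahsg (fetuin-A) 2.79 (2.73 to 2.84). Among 23 other serpin genes with enough UMIs, 7 were higher and 9 lower, with a median ratio of 0.870. Those higher included Serpina1c at 10.2 (8.15 to 12.8) and Serpina1e at 12.7 (7.20 to 24.5). Those lower included Serpinh1, which encodes a collagen chaperone, at 0.220 (0.191 to 0.252). Of the proteases that serpins act on, Prtn3 alone was in the table, at 2.55 (2.39 to 2.72).

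Cell-cycle classes were set from fixed lists of S and G2/M genes: the top 25% by the G2/M list in each set, then the top 25% of the others by the S list, then the rest. In set 1 these held 1805, 1345 and 4077 cells, with median depths of 22693, 16850 and 12630 UMIs. Serpina7 was at 17.5 CPM (16.3 to 18.6) in the G2/M class, 41.0 (38.8 to 43.4) in the S class and 102.0 (99.7 to 104) in the rest. The ratio of the G2/M class to the rest was 0.171 (0.160 to 0.183), and that of the S class 0.402 (0.378 to 0.427). For Serpina1a the G2/M ratio was 0.244 (0.213 to 0.278), for Serpina1b 0.291 (0.270 to 0.312) and for Serpina1d 0.215 (0.187 to 0.246). The S ratios were 0.555 (0.492 to 0.626), 0.571 (0.533 to 0.612) and 0.476 (0.420 to 0.539) in that order. All 4 were at least 1.5 times lower in the G2/M class, against 35.7% of 1688 genes, and all 4 in the S class, against 22.7% of 1650. The fibroblast markers were at 72.6 CPM in the G2/M class, 67.9 in the S class and 203 in the rest. The myeloid markers were at 52.2, 102 and 100.5 CPM and the T-cell markers at 24.6, 27.1 and 25.4, and their part in the phase ratios was not tested.

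Over the 6 sets, Serpina7 alone of the 4 kept this direction in each. Its mean value was lower in the G2/M class in 6 of 6 sets, by 0.19 to 0.29, which held for 30.9% of all genes (29% were higher in all 6), and lower in the S class in 6 of 6, against 11.1%. Serpina7 reached a value of 1 in 1.95% to 7.42% of G2/M cells and in 14.6% to 21.8% of the rest. Serpina1a and Serpina1d were lower in the G2/M class in 5 of 6 sets and Serpina1b in 4 of 6. In the S class, Serpina1a and Serpina1d were lower in 5 of 6 and Serpina1b in 3 of 6. Set 6 went the other way for all 3 copies in G2/M, by 0.0060 for Serpina1a, 0.017 for Serpina1b and 0.00095 for Serpina1d, and set 2 by 0.0011 for Serpina1b. Of the 27 secreted liver proteins, 17 were at least 1.5 times lower in the G2/M class and 0 higher, with a median ratio of 0.524 against 0.842 over all genes. The S class gave 9 lower, 0 higher and a median of 0.721 against 0.960. Of the other 23 serpins, 9 were lower and 3 higher in G2/M, and 7 lower and 3 higher in S. All 8 listed hypoxia genes were lower in both classes.

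Hypoxia and phase classes overlap: 43.8% of the lowest hypoxia tertile was in the G2/M class and 3.81% of the highest. Each was therefore read within the other. In the rest class alone, the hypoxia ratio was 4.02 (3.61 to 4.49) for Serpina7, 10.1 (7.0 to 15) for Serpina1a, 6.28 (5.29 to 7.51) for Serpina1b and 13.6 (9.05 to 21.6) for Serpina1d. In the 92 G2/M cells of the highest hypoxia tertile the copies were few, with 2 UMIs of Serpina1a, 14 of Serpina1b and 4 of Serpina1d, and their hypoxia ratio within G2/M was 0.364 (0.0436 to 1.35), 0.727 (0.394 to 1.23) and 0.797 (0.213 to 2.10). Serpina7 had 94 UMIs in those cells and a ratio of 4.33 (3.43 to 5.42).

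The phase ratio of Serpina7 was below 1 within each hypoxia tertile, at 0.416 (0.362 to 0.479), 0.251 (0.224 to 0.281) and 0.448 (0.362 to 0.550) for G2/M from the lowest to the highest tertile. For S the ratio of Serpina7 was 0.487 (0.408 to 0.579), 0.440 (0.393 to 0.491) and 0.760 (0.699 to 0.826). The phase ratios of the copies were not below 1 in every tertile. Within the lowest tertile the G2/M ratio was 1.27 (0.843 to 1.96) for Serpina1a, 0.974 (0.801 to 1.19) for Serpina1b and 1.51 (0.956 to 2.49) for Serpina1d, with every interval holding 1. Within the middle tertile it was 0.494 (0.404 to 0.601), 0.558 (0.501 to 0.621) and 0.404 (0.330 to 0.491), and within the highest 0.0459 (0.00555 to 0.166), 0.113 (0.0616 to 0.189) and 0.0883 (0.0240 to 0.227). The S ratio of the copies within the lowest tertile was 0.933 (0.552 to 1.58), 0.756 (0.587 to 0.972) and 1.03 (0.574 to 1.88). Within the middle tertile it was 0.378 (0.287 to 0.493), 0.458 (0.397 to 0.526) and 0.420 (0.328 to 0.532). Within the highest it was 1.38 (1.20 to 1.59), 1.33 (1.22 to 1.45) and 1.09 (0.930 to 1.27). The share of cells with a value of at least 1 had the opposite order there, at 0.955%, 2.87% and 0.955% of the 314 S cells and 1.40%, 3.74% and 1.65% of the 2006 rest cells, so few cells set these ratios.

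**Figure D3:**
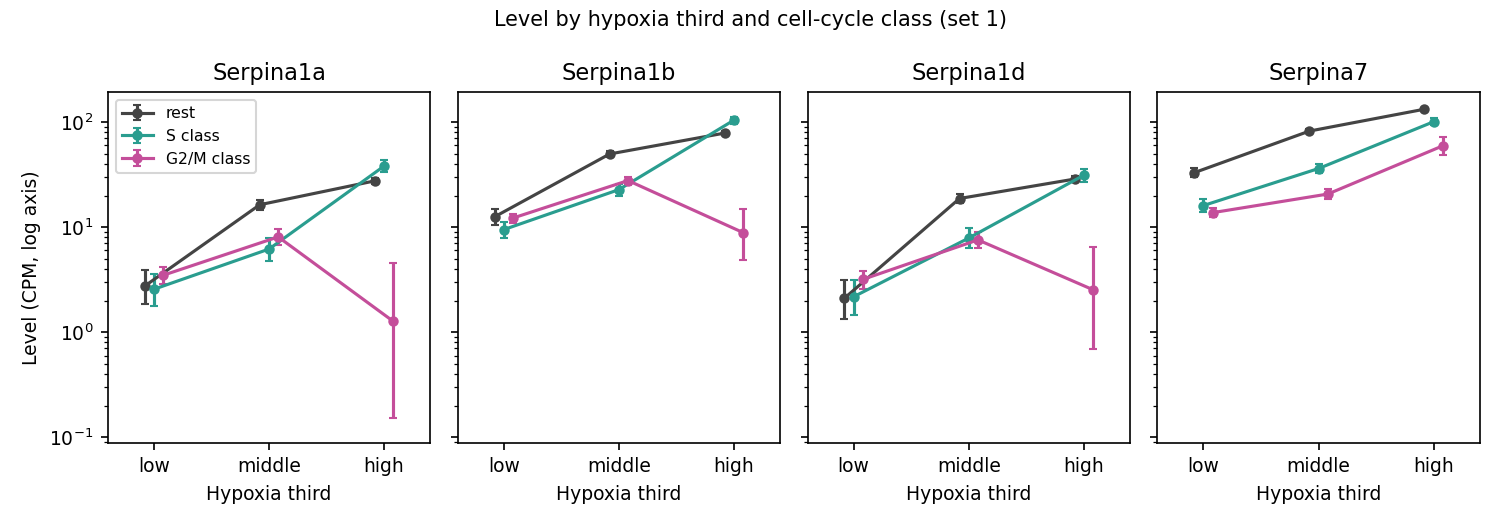
Level of each gene in set 1 (CPM, log axis) by hypoxia tertile, for the rest, S and G2/M classes; points are levels from summed UMIs and bars 95% Poisson intervals. Serpina7 goes from 33.1 to 133 CPM in the rest class and is lowest in G2/M in every tertile, while the Serpina1 genes in the S class reach 38.2, 105 and 31.3 CPM in the highest tertile.

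Fabp1 encodes the liver fatty acid-binding protein, a mark of mature hepatocytes. In set 1 it had no UMI in 6072 hepatoma cells, so the highest and lowest tertiles of its value become the 1155 cells with a Fabp1 UMI and the 6072 without. The former were deeper, with a median of 28027 UMIs against 13447. Serpina1a was at 40.4 CPM (38.4 to 42.4) in cells with Fabp1 and 3.89 (3.54 to 4.27) in those without, a ratio of 10.4 (9.34 to 11.6). Serpina1b was at 113 and 14.7 CPM with a ratio of 7.72 (7.30 to 8.17), and Serpina1d at 39.9 and 4.41 CPM with a ratio of 9.05 (8.18 to 10.0). Serpina7 was at 71.5 and 58.0 CPM with a ratio of 1.23 (1.18 to 1.29). The 3 copies passed 1.5 times and Serpina7 did not, against 9.71% of 1731 genes. The myeloid markers were at 36.7 CPM in cells with Fabp1 and 101.0 in those without, the fibroblast markers at 92.1 and 147, and the T-cell markers at 23.8 and 26.1. Their part in the Fabp1 ratios was not tested.

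As with hypoxia, few cells set the size for the copies. Without the 10 cells with the most UMIs of each gene, the Fabp1 ratio was 4.20 for Serpina1a, 3.81 for Serpina1b, 4.09 for Serpina1d and 1.08 for Serpina7. Setting the 102 cells with a Fabp1 value of at least 2 against the 6783 with a value below 0.5, a choice made after seeing the data, gave 91.7 (83.3 to 101) for Serpina1a, 57.8 (54.8 to 61.0) for Serpina1b, 71.4 (65.1 to 78.3) for Serpina1d and 2.43 (2.20 to 2.67) for Serpina7, while 22.8% of 1726 genes were at least 1.5 times higher and 49.1% as much lower. In that comparison 61.8% of the 102 cells had a Serpina1b UMI and 15.9% of the others. With Fabp1 tertiles within each set, which in sets 2 to 6 divide altered values near 0, all 4 genes were higher in the highest tertile in 6 of 6 sets, against 21.9% of all genes, by a median of 0.08 for Serpina1b and 0.10 for Serpina7. With the value of 2 all 4 were again higher in 6 of 6 sets, where 20.9% of all genes were higher and 31.1% lower in all 6. The median difference over the sets was 1.01 for Serpina1b, 0.59 for Serpina1d, 0.55 for Serpina1a and 0.37 for Serpina7. The order varied between sets, as in set 3 the difference was 0.51 for Serpina7, 0.38 for Serpina1a and 0.32 for Serpina1d.

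Read together, the classes gave different patterns for the copies and for Serpina7. Among cells with a Fabp1 UMI, Serpina1b was at 20.7, 85.0 and 284 CPM from the lowest to the highest hypoxia tertile, a ratio of 13.7 (12.2 to 15.5) between the outer tertiles. Among cells without one, it was at 8.34, 17.8 and 18.9 CPM, a ratio of 2.27 (1.99 to 2.59). The share of the Fabp1 cells with a Serpina1b UMI was 24.0%, 31.2% and 28.6% over the tertiles, and that with a value of at least 1 was 2.90%, 7.44% and 11.3%. Serpina1a had a ratio of 20.1 (16.1 to 25.5) with Fabp1 and 1.78 (1.37 to 2.33) without, and Serpina1d 18.1 (14.6 to 22.8) and 3.21 (2.42 to 4.31). For Serpina7 the hypoxia ratios were 6.88 (6.09 to 7.80) with Fabp1 and 7.15 (6.6 to 7.75) without, with overlapping intervals. Few cells set these sizes too. Among cells with Fabp1, leaving out the 10 with the most UMIs of each gene gave 6.14 (4.30 to 8.95) for Serpina1a, 5.23 (4.44 to 6.19) for Serpina1b, 5.39 (3.81 to 7.78) for Serpina1d and 4.99 (4.39 to 5.68) for Serpina7. Fabp1 itself had a hypoxia ratio of 0.785 (0.742 to 0.831).

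**Figure D4:**
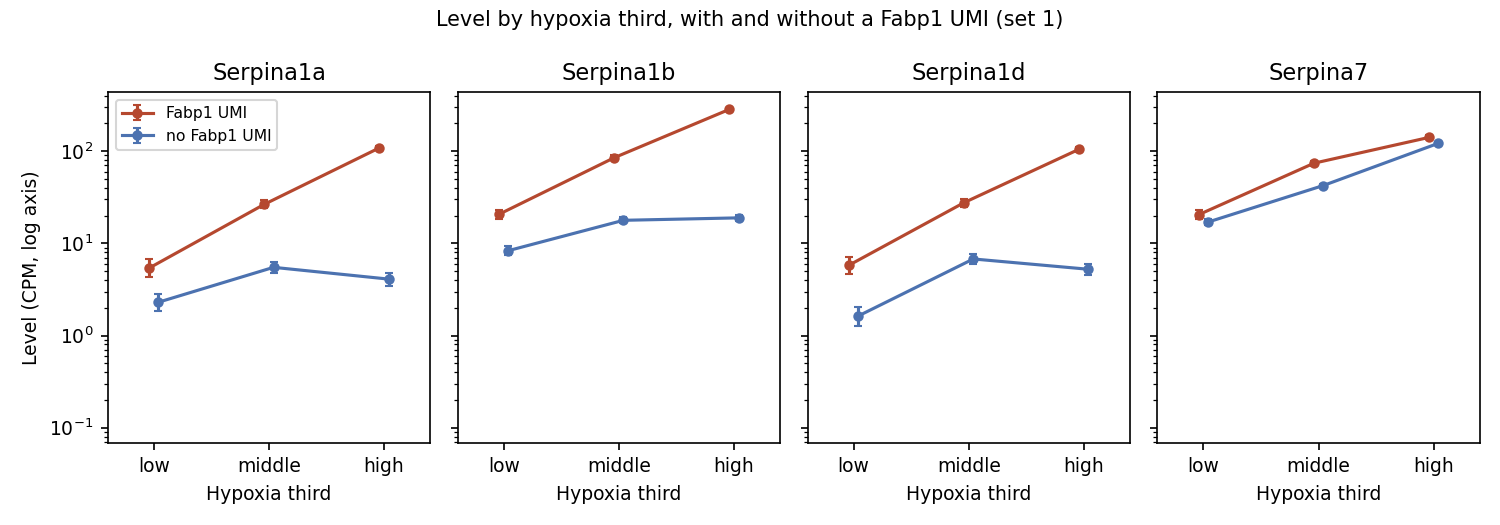
Level of each gene in set 1 (CPM, log axis) by hypoxia tertile, for hepatoma cells with and without a Fabp1 UMI; points are levels from summed UMIs and bars 95% Poisson intervals. The lines for Serpina1a, Serpina1b and Serpina1d move apart towards the highest tertile (284 against 18.9 CPM for Serpina1b), and those of Serpina7 stay close (141 against 122 CPM).

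The cells that held most of the Serpina1 RNA were then described by what else they held. Of the 7227 cells, 100 (1.38%) had at least 5 UMIs of the 3 copies together per 10000, and they held 75.5% of the UMIs of these genes. A further 43 cells lay between 3 and 5, and 26 of the 100 between 5 and 8. The median depth of the 100 was 12884 UMIs against 15294 in the others. A median does not give the depth of the few cells with the most UMIs of the copies. The part of depth or of doublets that were not called in those cells was not tested. No called doublet had 5 or more such UMIs per 10000. UMIs of all 3 copies were found in 62 of the 100, of 2 in 16 and of 1 in 22. The cut is relative to depth and the shallowest hepatoma cell held 1001 UMIs, so a shallow cell can reach it with 1 UMI. The highest hypoxia tertile held 52 of them, the middle 36 and the lowest 12, and the G2/M class held 8. A Fabp1 UMI was found in 59, against 15.4% of the other 7127 cells.

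All 27 listed secreted liver proteins were at least 1.5 times higher in these cells, with a median ratio of 6.01, against 25.8% of 1728 genes, while 44.2% were as much lower and the median ratio of all was 0.792. Of the 23 other serpins, 13 were higher and 8 lower, and of the 8 other hypoxia genes 2 were higher and 2 lower. Apart from Serpina1c at 440 CPM against 1.35 and Serpina1e at 68.0 against 0.263, the gene with the largest ratio was Cyp2a4, a steroid hydroxylase of liver and kidney, at 943 against 3.14 CPM (ratio 299.9, 271 to 332). The part of reads shared with the 3 copies in the ratio of Serpina1c was not tested. Apoa2 and Apoa1, the main proteins of high-density lipoprotein, were at 2067 against 23.5 CPM and 4550 against 106. Plg (plasminogen) was at 274 against 3.47 CPM, Serpinc1 (antithrombin) at 259 against 4.86 and F10 (coagulation factor X) at 213 against 4.93. Fabp1 itself was at 1755 against 42.0 CPM. Afp and Alb were 2.21 and 2.72 times higher, Hnf4a 2.48 and Cebpa 2.37 times. Krt8 was level, at 1146 against 1151 CPM (ratio 0.995, 0.957 to 1.03).

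At least 1.5 times lower were all 22 S genes and 39 of 42 G2/M genes of the phase lists, with median ratios of 0.417 and 0.357, and none was as much higher. Top2a, of the G2/M list, had a ratio of 0.254 (0.212 to 0.303), and Ccnd1 (cyclin D1), of neither list, 0.322 (0.285 to 0.362). Wif1 and Nkd1, chosen after their values were seen, were at 20.1 against 159 CPM and 9.85 against 95.3 CPM. Serpina7 was at 106 CPM against 60.9, a ratio of 1.74 (1.53 to 1.98). Of the 208 cells with at least 5 Serpina7 UMIs per 10000, 4 were among the 100, which is 1.92% of the former and 4% of the latter. Over all hepatoma cells of set 1, the 100 made up 1.38% and the Serpina7-high cells 2.88%, so neither share of the overlap was lower than that over all cells. Serpina7-high cells made up 0.374%, 1.83% and 6.43% of the lowest, middle and highest hypoxia tertile.

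**Figure D5:**
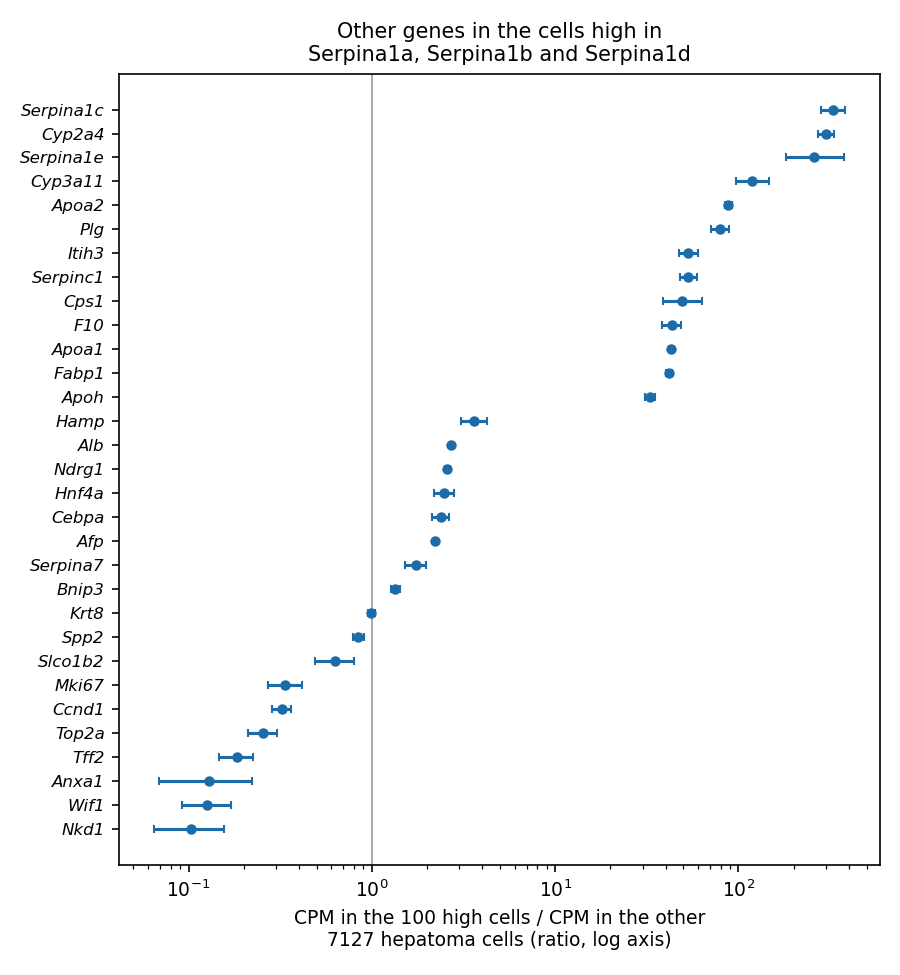
Ratio of CPM (log axis) in the 100 cells with at least 5 Serpina1a, Serpina1b and Serpina1d UMIs per 10000 to CPM in the other 7127 hepatoma cells of set 1, for named genes; bars are 95% intervals of the ratio for counting error. Liver enzymes and plasma proteins lie far to the right (Cyp2a4 at 299.9), Krt8 at 0.995 and Nkd1 at 0.103.

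Markers of other cells were counted in the same 100 cells. The host liver's own hepatocytes could enter a tumour sample, and of 7 listed hepatocyte markers 4 were in the table. Their summed level was 243 CPM (223 to 264) in the 100 cells, where single cells ranged from 0 to 4283 CPM, and 22.3 CPM (21.6 to 23.1) in the others, where they ranged from 0 to 2159. Cyp3a11, a drug-metabolising enzyme, was at 116 against 0.978 CPM and Cps1, of the urea cycle, at 52.8 against 1.07, while Mup20, a major urinary protein, had 3 UMIs in the 100 cells and Hamp (hepcidin) was at 72.5 against 20.1 CPM. A UMI of Cyp3a11, Cps1 or Mup20 was found in 36 of the 100 cells and 280 of all 7227 (3.87%). Hamp was not used for this choice. Those 280 cells held 64.4% of Serpina1a UMIs, 53.6% of Serpina1b, 63.1% of Serpina1d and 8.81% of Serpina7 UMIs. Their UMI totals were also larger. Half-way totals by rank (medians) were 31822 for the 280 and 14781 for hepatoma cells lacking all 3 markers. The shares were not corrected for depth, and its part in them was not tested. Without the 280 cells the hypoxia ratio was 4.63 (3.80 to 5.68) for Serpina1a, 4.93 (4.44 to 5.48) for Serpina1b, 6.91 (5.55 to 8.70) for Serpina1d and 6.96 (6.49 to 7.47) for Serpina7. The Fabp1 ratio was 4.04, 3.64, 4.24 and 1.14 without them. The S ratio came to 0.941 (0.786 to 1.12) for Serpina1a, 0.749 for Serpina1b and 0.793 for Serpina1d, so that only Serpina7, at 0.414, stayed at least 1.5 times lower in S. What part host hepatocytes or their RNA play in the copies' values was not tested.

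By hypoxia tertile the summed hepatocyte markers were at 23.2, 34.7 and 18.2 CPM, highest in the middle, and they were at 43.5 CPM in cells with a Fabp1 UMI and 19.2 in those without. The T-cell list was at 26.0 CPM in the 100 cells and 25.5 in the others, the myeloid list at 95.4 and 84.1, the fibroblast list at 19.3 and 134, and the endothelial list (2 of 3) at 0.895 and 1.40, with Kdr at 0 in the 100. None of the 3 erythroid markers was in the table.

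The other liver genes showed where the copies stood with Fabp1. Of 27 secreted liver proteins, 17 were at least 1.5 times higher in cells with a Fabp1 UMI and none was as much lower, against 9.71% and 20.6% of all genes tested. Their median ratio was 1.82, against 0.970 over all genes. Apoa1 was at 430 against 79.5 CPM, Apoh (beta-2-glycoprotein I) at 80.3 against 13.5 and Plg at 21.9 against 2.27. Of the 23 other serpins, 9 were higher, among them Serpina1c, Serpina1e and Serpinc1, and 2 lower, Serpinh1 and Serpinb1a. Hnf4a had a ratio of 1.27 (1.21 to 1.34) and Cebpa 1.14 (1.09 to 1.19). The remaining 8 of 10 listed liver transcription factors were not analysed here.

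By correlation of values across hepatoma cells, averaged over the 6 sets, the genes most like the mean of the 4 were Serpina1c (mean r 0.49, from 0.27 to 0.58 over the sets), Gc (0.46), Pzp, which encodes a broad protease inhibitor (0.46), Fgl1, a fibrinogen-like protein (0.44), and Ahsg (0.44). Those least like it were Hmgb2, a chromatin protein of dividing cells (-0.18), Ccnd1 (-0.16) and the MHC genes H2-Ab1 (-0.16), H2-K1 (-0.16) and H2-Aa (-0.15). The 5 negative values are weak, and the median over all genes was -0.01. Taken alone, Serpina1b was most like Serpina1c (0.56), Cyp2a4 (0.44) and Apoa1 (0.42), while Serpina7 was most like Fgl1 (0.47), Kng1, or kininogen (0.42), and Fga, a fibrinogen chain (0.41). The part of shared reads in the likeness of Serpina1c was not tested. With Spearman's rho in place of r, 1 of the 5 leading genes was shared, Fgl1. With r in set 1 alone, 2 of the 5 were shared, Serpina1c and Gc. The list thus depends on the measure and on the sets used.

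In 412 cells with a mean value of Ppbp, Anxa1 and Tff2 of at least 1, the levels were 1.77 CPM for Serpina1a, 11.1 for Serpina1b, 1.87 for Serpina1d and 24.8 for Serpina7, which is 0.125, 0.263, 0.130 and 0.388 times the level in the other hepatoma cells. In 1817 cells with a mean value of Slco1b2, Wif1 and Spp2 of at least 1 the ratios were 0.179, 0.203, 0.112 and 0.475.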

How the data were processed

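Single-cell RNA was measured in dissociated tumours with DNBelab C4 droplets, per the labels' protocols. The submitters' processing notes name STAR 2.7.2b and the builds GRCh38 and mm10, and the design text names PISA and barcodeRanks of DropletUtils. The authors deposited 1 table of 2000 genes in 53528 cell columns of no known sample, on a natural log scale. In set 1 all 9370 cell totals (1001 to 261833 UMIs) could be recovered, as every non-zero value came out as a whole number of UMIs within 0.01. The values of sets 2 to 6 had been altered by a step not given in the sources used here. Cell names are running numbers, so barcodes shared between sets could not be counted.

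In set 1, Scrublet (scanpy 1.11.5, expected rate 6%) called 91 of 9370 cells (0.971%) as doublets, and these were left out. UMIs were summed per class and divided by the summed totals. Levels have exact Poisson intervals, ratios exact conditional ones and shares exact Clopper-Pearson ones, all at 95%. Genes needed 50 UMIs in both classes together, and a gene counts as higher or lower from 1.5 times. With 1 pooled sample no p-value is given. Classes used 42 of 53 listed G2/M genes and 22 of 43 listed S genes found in the table. Sums were made with Python 3.11.15, numpy 2.4.6 and scipy 1.17.1, and sequences read with Biopython 1.88. The fold rule and the ratio intervals were tested on simulated Poisson counts. Such counts lack the gathering of UMIs in few cells, so that test does not bear on the intervals of the copies.

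The members and lists were chosen with earlier results of these data known. The named genes are the members, all other Serpin genes, lists of secreted liver proteins, liver transcription factors, hypoxia genes and serpin target proteases, gate, score and marker genes, and the 5 genes most and least like the members. Fabp1 classes, Cyp2a4, F10, Wif1, Nkd1 and the 100 high cells were chosen after their values were seen. Alternatives changed the gate, immune bound, doublets, depth, denominators, class sizes, scores, folds and UMI minimum. The values of 1 of the other serpin genes are not reported here.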

Additional observations from a re-analysis of the deposited data

How the results depend on the processing

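Across 268 alternative values of the members' ratios in set 1, 259 kept their direction, 9 reversed, and 104 lay within the 95% interval given in the report. The hypoxia ratio kept its direction in 20 of 21 alternatives for each copy and in 21 of 21 for Serpina7, from 4.02 to 8.44. The highest values were 20.1 for Serpina1a, 13.7 for Serpina1b and 18.1 for Serpina1d, and the lowest were the reversals within the G2/M class, at 0.364, 0.727 and 0.797, where 1 of the 4 members was at least 1.5 times higher. The Fabp1 ratio kept its direction in all 14, with Serpina7 between 1.06 and 2.43. Among these, outer classes of 25% give the main classes again in set 1, since most cells there have no Fabp1 UMI. Agreement of that alternative was fixed in advance, and it is counted in the 14, the 268, the 259 and the 104. The other 6 reversals lie within hypoxia tertiles: G2/M in the lowest, at 1.27 for Serpina1a and 1.51 for Serpina1d, S in the lowest, at 1.03 for Serpina1d, and S in the highest, at 1.38, 1.33 and 1.09 for Serpina1a, Serpina1b and Serpina1d; the cause was not tested. Of the 4 members at least 1.5 times lower, 1 remained so for G2/M within the lowest tertile. For S it was 1 within the lowest tertile, 0 within the highest and 1 without cells with a UMI of Cyp3a11, Cps1 or Mup20. Levels as a mean over cells were 9.20, 30.7, 8.79 and 63.7 CPM for Serpina1a, Serpina1b, Serpina1d and Serpina7, without the 10 cells with the most UMIs 5.39, 22.2, 5.76 and 58.0, and without the cells with those hepatocyte markers 5.13, 20.2 and 5.42 for the 3 copies. A fold of 2 in place of 1.5 left 209 genes higher and 376 lower in G2/M, 106 and 176 in S, and 104 and 188 with Fabp1, and a minimum of 200 UMIs left 236 lower in S and 222 lower with Fabp1. These counts are lower by construction, with a stricter rule or fewer genes tested. Over the sets, all 4 genes stayed higher in 6 of 6 with hypoxia and with Fabp1, both with the gate on Krt8 alone and with outer classes of 25%. The Krt8 gate moved the sets with a lower value from 4 to 5 for Serpina1b in G2/M and from 5 to 6 for Serpina1d in G2/M and in S, while Serpina1b in S was at 3 of 6 with either gate. The depth of sets 2 to 6 is unknown. In set 1, cells with T-cell genes also held UMIs of the Serpina1 genes, so a single UMI is not read as a cell that makes them. No paired analysis was possible because no cell could be tied to a numbered sample.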
